A study of Homo sapiens with 6 samples.

Results

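NRF2, the product of NFE2L2, is a transcription factor that switches on genes for glutathione and thioredoxin metabolism, NADPH supply, detoxification and haem and iron handling. In unstressed cells the adaptor KEAP1 binds NRF2 and directs its degradation. Oxidants or electrophiles modify KEAP1, after which NRF2 enters the nucleus, pairs with a small MAF protein and binds antioxidant response elements in its target promoters. In endothelial cells, which line blood vessels, these genes are known for limiting oxidant damage and for rising under laminar flow. The 34 genes described here were taken by name from 19755 protein-coding genes and comprise NFE2L2, KEAP1 and targets of the pathway.

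RNA-seq was run on cells whose labels name both EA.hy926, an established hybrid of an umbilical vein endothelial cell and the lung carcinoma line A549, and primary human umbilical vein endothelial cells. Cells were grown in DMEM with serum and antibiotics, and the groups were 3 control libraries, with no vehicle named, and 3 libraries exposed for 12 h to lipopolysaccharide (LPS, a bacterial outer membrane glycolipid) at 1000 ng/ml. Nothing in the labels ties a library to a culture of its own, so p-values describe only library-to-library spread, possibly technical. Values are FPKM, fragments scaled to transcript length and to mapped fragments, so levels can be compared between genes, but read depth is unknown.

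Summed FPKM of protein-coding genes lay between 256047 and 264878 in the 6 libraries. Of 8 listed genes known to respond to LPS, all had a log2 change above 0. In 6 every LPS library lay above every control library, beside 8.68% of all genes tested. These genes were listed with earlier results of these data known, so they are no independent check of the response. The interferon-response gene MX1 was 0.847 ± 0.257 FPKM in controls and 13.6 ± 7.71 with LPS (SD, n = 3), and ISG15 was 17.1 ± 1.87 and 54.3 ± 9.76. Both rose (limma, adjusted p = 0.0344 for each), calls lost with no filter on low values, with the replicate block and without control 2 or LPS 2, where 0 genes were called. The other 6, CCL2, ICAM1, SELE, TNFAIP3, CXCL8 and NFKBIA, did not pass, and the groups of CXCL8 and NFKBIA overlapped. All 12 endothelial markers listed were expressed, their summed level being 393 to 518 FPKM in controls and 481 to 615 with LPS. Fibroblast and smooth muscle markers were also high, which an endothelial line would not be known for: 9 of 10 averaged at least 0.5 FPKM. Their sum was 3562 to 4005 FPKM in controls and 3534 to 3951 with LPS, led by COL1A1 (1395 and 1526 FPKM). The sum hides a library difference. Relative to the control mean, the median of these 9 markers was 0.06, 0.07 and -0.10 in log2 in control 1, 2 and 3. In LPS 1, 2 and 3 it was 0.00, -0.06 and -0.63. Of 12 epithelial and A549 markers, 4 averaged at least 0.5 FPKM, the summed level was 125 to 138 in controls and 91.6 to 115 with LPS, and NKX2-1 and SFTPC were listed at 0 in every library. Of 10 leukocyte markers, 2 averaged at least 0.5 FPKM, the sum was 7.65 to 13.2 in controls and 12.1 to 17.2 with LPS, and PTPRC, CD3E and MS4A1 were listed at 0 throughout. In 5 endothelial markers every LPS library lay above every control library, whereas KRT8, KRT18 and KRT19 of the epithelial list and COL3A1, PDGFRA and LUM of the fibroblast list lay lower in every LPS library. KRT7 of the epithelial list, THY1 and MYH11 of the fibroblast list and LAPTM5 of the leukocyte list lay higher in every LPS library. Of all genes tested, 8.68% lay higher and 8.73% lower in this way. A lower level in these bulk libraries cannot be told apart from fewer cells of a type that expresses the gene, and the part of these markers in the results below was not tested.

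NRF2 and its MAF partner read the core TGACNNNGC, which was searched on both strands of RefSeq promoters (GRCh38.p14, 250 bases before to 50 after each start). The core was present in 7 of the 26 member genes that had a promoter in the table and in 16.1% of all 27305 genes with one. The following stretches, 5′ to 3′ on the gene's strand and ending before the start, show the core in capitals in 4 of these members, picked to set a start in full use beside starts in part or little use. They are ME1 (chr6:83431052-83431228, minus strand), GCLM (chr1:93909431-93909504, minus strand), the downstream start of TXNRD1 (chr12:104286890-104286978, plus strand) and a start of EPHX1 (chr1:225825236-225825324, plus strand).
ME1: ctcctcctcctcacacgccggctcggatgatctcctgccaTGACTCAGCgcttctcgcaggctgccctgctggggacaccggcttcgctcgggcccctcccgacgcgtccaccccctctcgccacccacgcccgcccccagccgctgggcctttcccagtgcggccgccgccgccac
GCLM: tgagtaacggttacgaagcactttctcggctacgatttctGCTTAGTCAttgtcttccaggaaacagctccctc
TXNRD1: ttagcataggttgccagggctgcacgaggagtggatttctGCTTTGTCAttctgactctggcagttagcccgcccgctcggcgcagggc
EPHX1: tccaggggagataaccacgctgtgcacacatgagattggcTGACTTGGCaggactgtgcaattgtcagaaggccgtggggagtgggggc
The ME1 match shown begins 137 bases before the start and also holds TGACTCA, the site read by AP-1 factors. That site was present in 2 of the 26 member genes (ME1 and OSGIN1) and in 6.05% of all genes. A second ME1 core lies 11 bases after the start on the opposite strand, outside the stretch shown. In the deposited transcript table, transcripts whose 5′ end lay within 500 bases of the start carried 100% of ME1 FPKM and 88.6% to 95% of GCLM FPKM in every library. The same share was 38.3% to 89.9% for the downstream TXNRD1 start and at most 0.439% for an upstream TXNRD1 start that also holds the core. The EPHX1 start shown carried at most 0.532% of EPHX1 FPKM, so little EPHX1 expression was assigned to it. KEAP1, PGD and GPX2 were the other members with a match, and the starts of KEAP1 and PGD carried 78.4% to 94.3% and 87.4% to 94.9% of FPKM. A match describes letters in the window and not binding. Sequence outside the window was not searched, so a member without a match may hold the core elsewhere.

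Of the 34 genes, 31 averaged at least 0.5 FPKM and were tested with limma on log2(FPKM + 0.5). AKR1B10 (0.262 ± 0.0614 FPKM in controls and 0.156 ± 0.0938 with LPS) and ABCC2 (0.155 ± 0.137 and 0.168 ± 0.129) were too low, and GPX2 was listed at 0 in all 6 libraries. No member passed an adjusted p under 0.05, against 7 of all 12068 genes tested (0.058%), and the lowest adjusted p of a member was 0.318. At an unadjusted p under 0.05, 7 members were lower with LPS and 0 were higher, where 5.26% of all genes tested were lower and 5.13% higher. In 10 of the 34 members every LPS library lay below every control library, and in 0 every LPS library lay above, beside 8.73% and 8.68% of all genes tested. The median log2 change was -0.11 over the tested members and -0.01 over all genes, and 23 of 31 members were below 0 where 52.2% of all genes were. The median rests partly on LPS 1, without which it was -0.06. Without control 3, the members lower at an unadjusted p under 0.05 fell in number to 4, while the share of all genes that were lower fell to 3.44%.

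**Figure D1:**
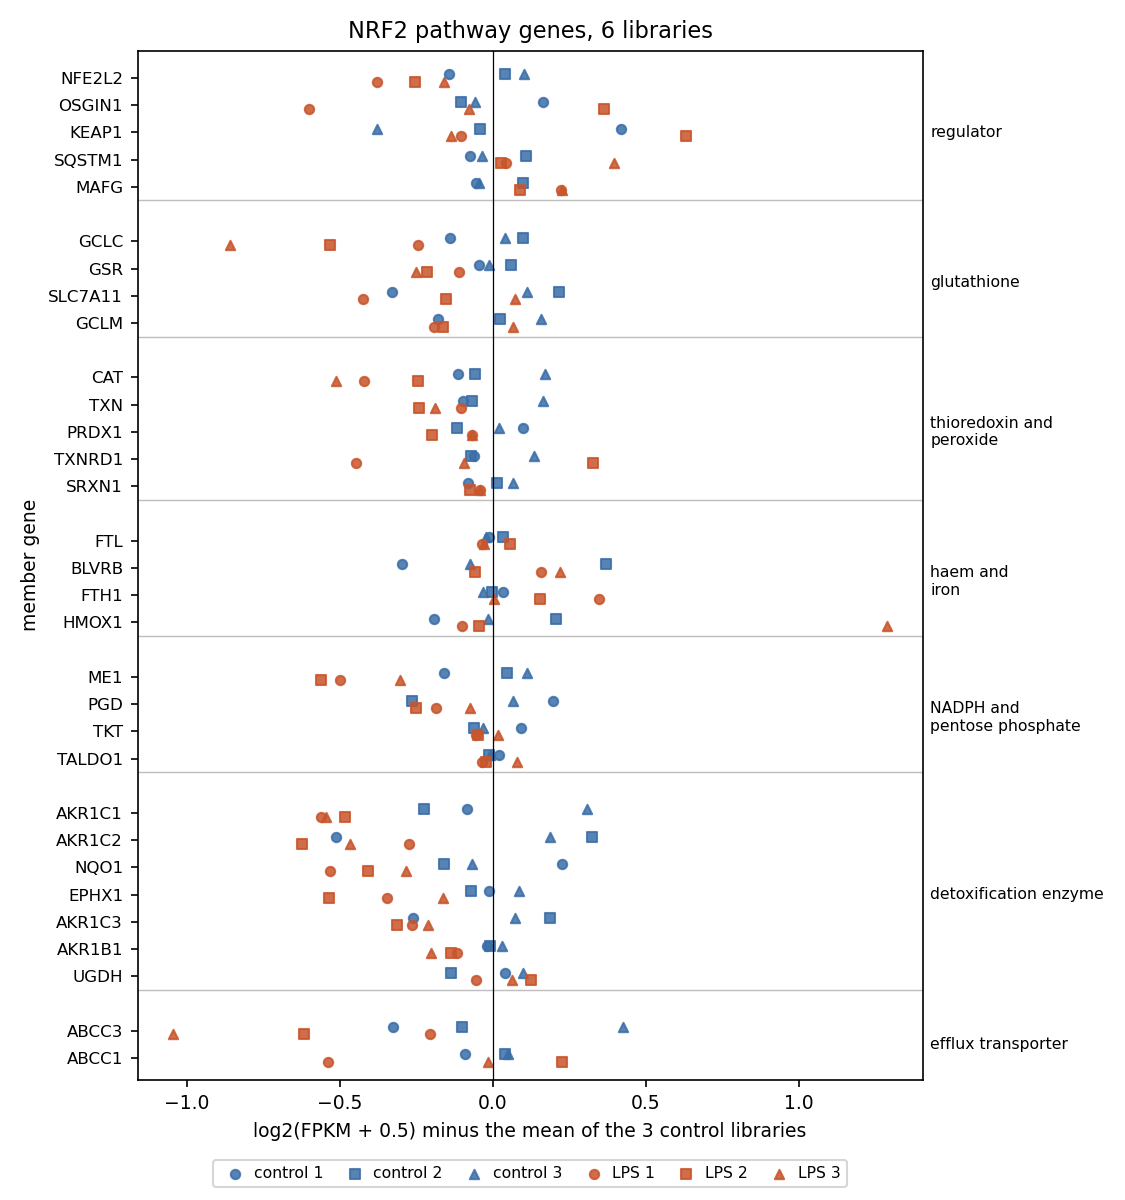
Log2(FPKM + 0.5) of each of the 31 tested members (rows, by role) in each library minus the mean of the 3 control libraries, with controls in blue, LPS in red and the shape giving the replicate number. In 10 genes, such as NQO1 and ME1, all red points lie left of all blue points, and HMOX1 has 1 red point, LPS 3, far to the right.

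The median difference was small in every library. Relative to the control mean, the median member stood at -0.08, 0.00 and 0.05 on the log2 scale in control 1, 2 and 3, and at -0.19, -0.15 and -0.08 in LPS 1, 2 and 3. LPS 3 therefore lay next to control 1. The 95% intervals of 28 of the 31 tested members lay within a 2-fold change in either direction, the exceptions being HMOX1, AKR1C2 and ABCC3.

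**Figure D2:**
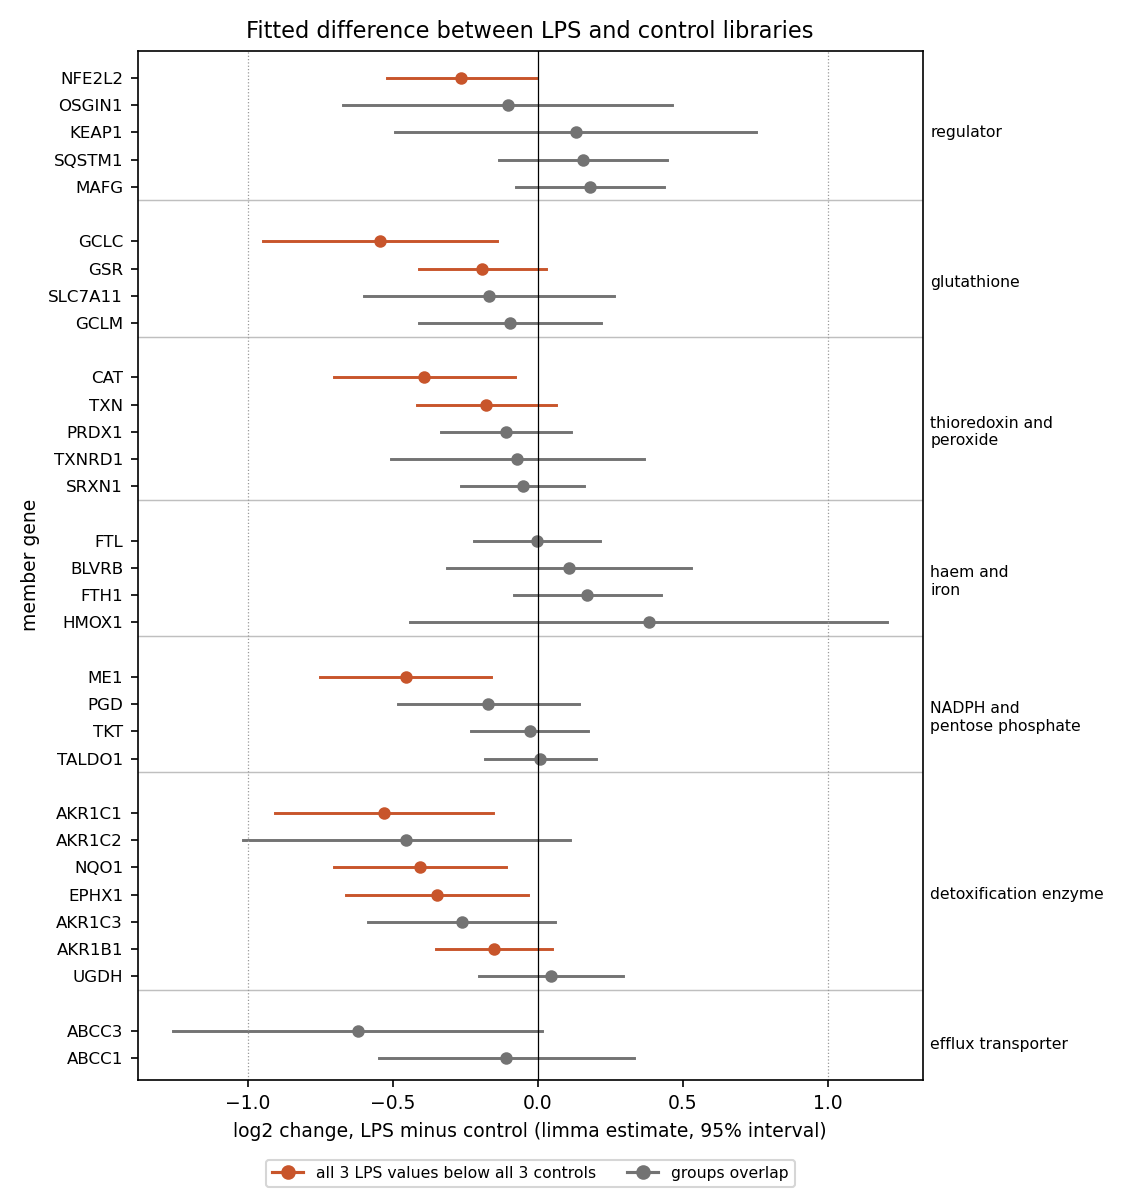
Log2 change (LPS minus control) of the 31 tested members by role, with 95% intervals from limma. The 10 genes whose groups do not overlap are in red, and dotted lines mark a 2-fold change. The intervals of 7 genes lie wholly below 0 and none wholly above, before adjustment for the number of genes tested.

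Among the regulators, NFE2L2 (chromosome 2, 177227595 to 177392697) was lower in all 3 LPS libraries. It was 24.8, 28.2 and 29.5 FPKM in controls and 21.0, 22.9 and 24.5 with LPS, and the groups met closely, the highest LPS library lying just under the lowest control. The log2 change was -0.26 (SE 0.11, adjusted p = 0.467). KEAP1 was 12.8, 9.16 and 7.15 FPKM in controls and 8.75, 14.9 and 8.54 with LPS, so 1 library in each group was high and the groups overlapped. MAFG, a small MAF partner of NRF2, averaged 8.43 ± 0.535 and 9.61 ± 0.541 FPKM. SQSTM1, an autophagy adaptor that can sequester KEAP1, averaged 196 ± 13.5 and 220 ± 33.2, with its highest value, 258, in LPS 3. OSGIN1, an oxidative-stress growth inhibitor, averaged 3.07 ± 0.363 and 2.94 ± 1.12. Of the 5 regulators, 2 had a log2 change below 0 and 3 above.

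**Figure D3:**
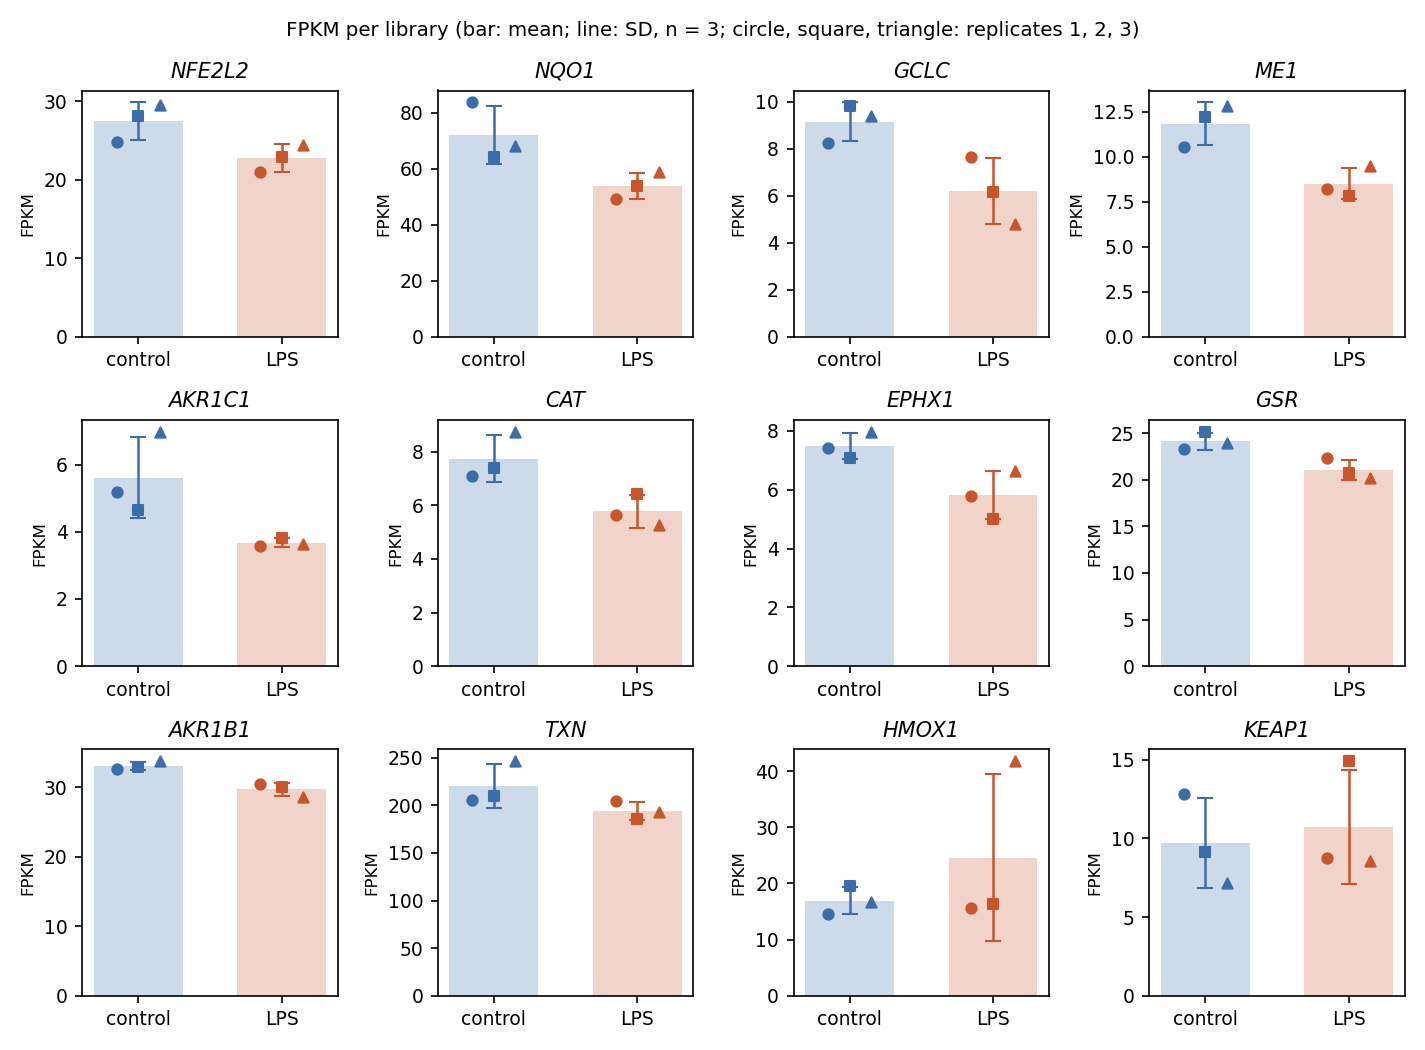
FPKM of 12 members in each library (points, the shape giving the replicate number), with bars for the group mean and lines for the SD (n = 3). The groups of 10 genes do not overlap, while HMOX1 has 1 high LPS library and KEAP1 has 1 high library in each group.

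All 4 tested glutathione genes had log2 changes below 0, and the groups of 2 did not overlap. GCLC (chromosome 6, 53497341 to 53616970), the catalytic subunit of the enzyme that limits glutathione synthesis, was 8.24, 9.83 and 9.41 FPKM in controls and 7.63, 6.17 and 4.81 with LPS. It averaged 9.16 ± 0.824 and 6.20 ± 1.41, a log2 change of -0.55 (SE 0.17, adjusted p = 0.351), and LPS 3 was the lowest. GCLM, the modifier subunit of that enzyme, was 8.20, 9.51 and 10.5 FPKM in controls and 8.13, 8.30 and 9.81 with LPS. The GCLM groups overlapped, and its log2 change was -0.10 (SE 0.13), and whether the 2 subunits differed in their change was not tested. GSR, the reductase that regenerates glutathione, was 23.3, 25.2 and 23.9 FPKM in controls and 22.3, 20.7 and 20.2 with LPS, narrow groups that did not overlap (log2 change -0.19, SE 0.09, adjusted p = 0.524). SLC7A11, the cystine importer that supplies cysteine for glutathione, was 11.9, 17.5 and 16.3 FPKM in controls and 11.1, 13.5 and 15.8 with LPS. Its groups overlapped, control 1 and LPS 1 being the low libraries.

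The 5 thioredoxin and peroxide genes were all below 0 as well, by small amounts apart from CAT. CAT (chromosome 11, 34438934 to 34472060), the catalase that breaks down hydrogen peroxide, was 7.09, 7.38 and 8.75 FPKM in controls and 5.63, 6.43 and 5.25 with LPS. The groups did not overlap and the log2 change was -0.39 (SE 0.13, adjusted p = 0.378). TXN, thioredoxin itself, was 205, 209 and 246 FPKM in controls and 204, 186 and 193 with LPS, groups set apart by a margin far smaller than their spread (adjusted p = 0.593). TXNRD1, the reductase that recharges thioredoxin, was 86.8, 86.2 and 99.5 FPKM in controls and 66.4, 114 and 84.9 with LPS, which put both its lowest and highest library in the LPS group. PRDX1, a peroxiredoxin, averaged 248 ± 18.7 and 229 ± 11.9 FPKM. SRXN1, the sulfiredoxin that repairs peroxiredoxins, averaged 22.6 ± 1.17 and 21.7 ± 0.292.

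The haem and iron genes overlapped between groups throughout. HMOX1, the inducible haem oxygenase and a widely used NRF2 readout, was 14.6, 19.5 and 16.6 FPKM in controls and 15.6, 16.3 and 41.8 with LPS. LPS 3 alone was high, and the log2 change of 0.38 (SE 0.35, adjusted p = 0.745) became -0.07 without that library. HMOX2, the constitutive haem oxygenase and not a member, was also highest in LPS 3, at 35.1 FPKM. FTL and FTH1, the ferritin light and heavy chains that store iron, were the most abundant members: FTL averaged 2397 ± 48.0 and 2392 ± 84.98 FPKM, and FTH1 averaged 495 ± 11.1 and 559.8 ± 66.9. BLVRB, a biliverdin reductase, averaged 13.1 ± 3.28 and 13.9 ± 1.43.

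Of the 4 NADPH and pentose phosphate genes, ME1 alone had groups that did not overlap. ME1 (chromosome 6, 83210402 to 83431051), the cytosolic malic enzyme that makes NADPH, was 10.5, 12.2 and 12.8 FPKM in controls and 8.20, 7.82 and 9.46 with LPS. Its log2 change of -0.46 (SE 0.13) had the lowest adjusted p of the members, 0.318. The pentose phosphate enzymes stayed closer to their control means. PGD averaged 47.9 ± 7.69 and 42.2 ± 2.66 FPKM, TALDO1 averaged 123 ± 1.57 and 124 ± 5.53, and TKT averaged 136 ± 7.80 and 133 ± 3.83.

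The detoxification enzymes held 4 of the 10 members whose groups did not overlap, and 6 of the 7 tested were below 0, with a median log2 change of -0.35. NQO1 (chromosome 16, 69706996 to 69726668), the quinone reductase most often used to read NRF2 activity, was 83.8, 64.1 and 68.3 FPKM in controls and 49.3, 53.8 and 58.7 with LPS. All 3 LPS libraries lay below the controls, and the log2 change was -0.41 (SE 0.13, adjusted p = 0.35). AKR1C1 (chromosome 10, 4963253 to 4983283), an aldo-keto reductase, was 5.20, 4.66 and 6.98 FPKM in controls and 3.59, 3.82 and 3.63 with LPS. The LPS libraries sat close together below the more scattered controls, with a log2 change of -0.53 (SE 0.16, adjusted p = 0.339). EPHX1 (chromosome 1, 225810092 to 225845563), the microsomal epoxide hydrolase, was 7.41, 7.10 and 7.97 FPKM in controls and 5.78, 5.01 and 6.64 with LPS, groups that did not overlap (log2 change -0.35, adjusted p = 0.444). AKR1B1, an aldose reductase, was 32.6, 32.9 and 33.8 FPKM in controls and 30.5, 30.0 and 28.7 with LPS. Its separation was clean but small, at a log2 change of -0.15 (adjusted p = 0.580). The related AKR1C2 and AKR1C3 averaged 1.88 ± 0.673 and 10.9 ± 1.76 FPKM in controls and 1.19 ± 0.206 and 8.91 ± 0.331 with LPS, and their groups overlapped. UGDH, which makes UDP-glucuronate for conjugation, averaged 23.2 ± 1.98 and 23.95 ± 1.53. AKR1C1, AKR1C2 and AKR1C3 are close relatives: 28.7%, 52.2% and 12.1% of their 50-base words also occur in transcripts of other genes, so the split of fragments among them is uncertain. Transcripts of the protein-coding table carried only 12.3% to 47.9% of AKR1C1 FPKM, the rest lying mostly in a processed transcript and an assembled transcript with no Ensembl identifier.

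The efflux transporters overlapped between groups. ABCC1, which exports glutathione conjugates, averaged 24.4 ± 1.32 and 23.1 ± 6.07 FPKM, with its lowest value (16.6) in LPS 1 and its highest (28.6) in LPS 2. TXNRD1 and OSGIN1 shared that order of LPS libraries, and all 3 turned above 0 when LPS 1 was left out. ABCC3 averaged 2.25 ± 0.765 and 1.29 ± 0.513 FPKM, a log2 change of -0.62 with a 95% interval of -1.26 to 0.01, the most negative of the members and among the least precise.

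The rest of the pathway was taken from lists of 20 further regulators and 41 further targets. None passed the adjusted threshold. Of 37 targets tested, 26 were below 0 where 52.2% of all genes tested were, and the median log2 change was -0.13. At an unadjusted p under 0.05, 4 targets were lower and 0 higher, beside 5.26% and 5.13% of all genes tested. MGST1, a microsomal glutathione transferase, was 40.7, 42.3 and 43.8 FPKM in controls and 27.6, 25.8 and 21.7 with LPS, the lowest adjusted p of these lists (0.143, log2 change -0.75). GLRX, glutaredoxin, averaged 29.1 ± 2.93 and 19.6 ± 2.62, ABCB6 averaged 3.10 ± 0.738 and 2.12 ± 0.113, and PTGR1 averaged 21.8 ± 1.41 and 18.3 ± 0.301. Of 18 regulators tested, 10 were below 0 and 8 above, and TXNIP, an inhibitor of thioredoxin, was the only one with an unadjusted p under 0.05, averaging 163 ± 7.93 and 123 ± 30.3 FPKM.

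In the transcript table, 62 of 147 transcripts of the member genes averaged at least 0.5 FPKM and 0 passed an adjusted p under 0.05, against 26 of 20563 transcripts (0.126%). Their lowest adjusted p was 0.673, and 41 of the 62 had a log2 change below 0 where 50.5% of all transcripts did. At an unadjusted p under 0.05, 5 were lower and 2 higher, beside 3.2% and 3.24% of all transcripts, and 8 lower and 2 higher had groups that did not overlap, beside 7.07% and 6.69%. GCLC-205 was 1.89, 1.86 and 1.87 FPKM in controls and 0.150, 0.932 and 0.743 with LPS, while GCLC-208 was 2.0, 3.35 and 4.33 in controls and 1.86, 0.718 and 1.55 with LPS. Both lay lower in every LPS library, and both are part of the gene's own value. CAT-201, at 6.84 ± 0.401 and 5.00 ± 0.491 FPKM, and ME1-201, at a log2 change of -0.46, were also lower. TKT-202 was 5.27, 4.07 and 9.60 FPKM in controls and 4.02, 2.35 and 2.24 with LPS. Its groups did not overlap although the whole TKT gene hardly differed. Control 3, its highest library, had an unusual TKT split, with TKT-207 at 49.6% of the gene and at 2.46% to 10.9% elsewhere. Several of the most abundant transcripts of members lay lower in every LPS library, each being part of its gene's own value. They were TXN-202, GSR-201, CAT-201, ME1-201 and TXNRD1-205. TXN-202 averaged 219 ± 22.6 FPKM in controls and 193 ± 9.35 with LPS, and GSR-201 averaged 23.7 ± 0.987 and 21.1 ± 1.11. TXNRD1-205 averaged 25.7 ± 1.03 and 14.2 ± 8.66 FPKM, although the TXNRD1 groups overlapped. For NQO1-201 (56.6 ± 15.1 and 44.9 ± 4.75), NFE2L2-202 (19.1 ± 1.02 and 17.1 ± 1.79), AKR1B1-201 (27.3 ± 2.06 and 26.1 ± 1.30) and EPHX1-206 (5.74 ± 1.10 and 2.76 ± 2.47) the groups overlapped, unlike those of the genes. GCLC-214 had the highest mean of the GCLC transcripts over the 6 libraries. It averaged 2.58 ± 0.644 and 3.22 ± 1.53 FPKM and so did not share the gene's lower level. In controls GCLC-208 averaged more, at 3.23 ± 1.17 FPKM, and it averaged 1.37 ± 0.589 with LPS. AKR1C1-202 averaged 1.31 ± 1.13 and 1.01 ± 0.544. HMOX1-201, SLC7A11-201, KEAP1-202 and GCLM-201 led the remaining genes given by library, and their groups overlapped. The higher transcripts were FTH1-201, the most abundant FTH1 transcript, and KEAP1-201. FTH1-201 was 267, 302 and 261 FPKM in controls and 442, 330 and 327 with LPS. KEAP1-201 was 0.605, 0.801 and 0.221 FPKM in controls and 1.36, 1.17 and 1.72 with LPS. FTH1 shares 40.4% of its 50-base words with 15 other genes, and SRXN1 shares 84.7%, so values of both are uncertain. The processed pseudogene RPL18AP3 lies within TXNRD1 on the same strand at a mean of 89.7 FPKM, and MGAT4B overlaps SQSTM1 on the opposite strand at 96.9, so fragments of these members may also be shared.

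The split of a gene among its transcripts was often unstable between libraries of 1 group. In 6 members (ABCC3, AKR1C2, EPHX1, OSGIN1, TXNRD1 and UGDH) the share of some transcript ranged over more than 50 percentage points across the 6 libraries, a threshold chosen after the values were seen. UGDH-205 was 22.5 FPKM in control 3 and at most 0.071 elsewhere, yet the highest library of the whole gene was only 1.2 times the lowest. TXNRD1-215 was 68.7 FPKM in LPS 2, 60.4% of the gene, and listed at 0 in the other 5 libraries. EPHX1-206, the leading EPHX1 transcript in the other 5 libraries, was listed at 0 in LPS 3. These 3 swings each rest on 1 library, whereas the shares of AKR1C2-201 (34.1% to 100%) and ABCC3-201 (0.53% to 63.8%) varied over several libraries.

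**Figure D4:**
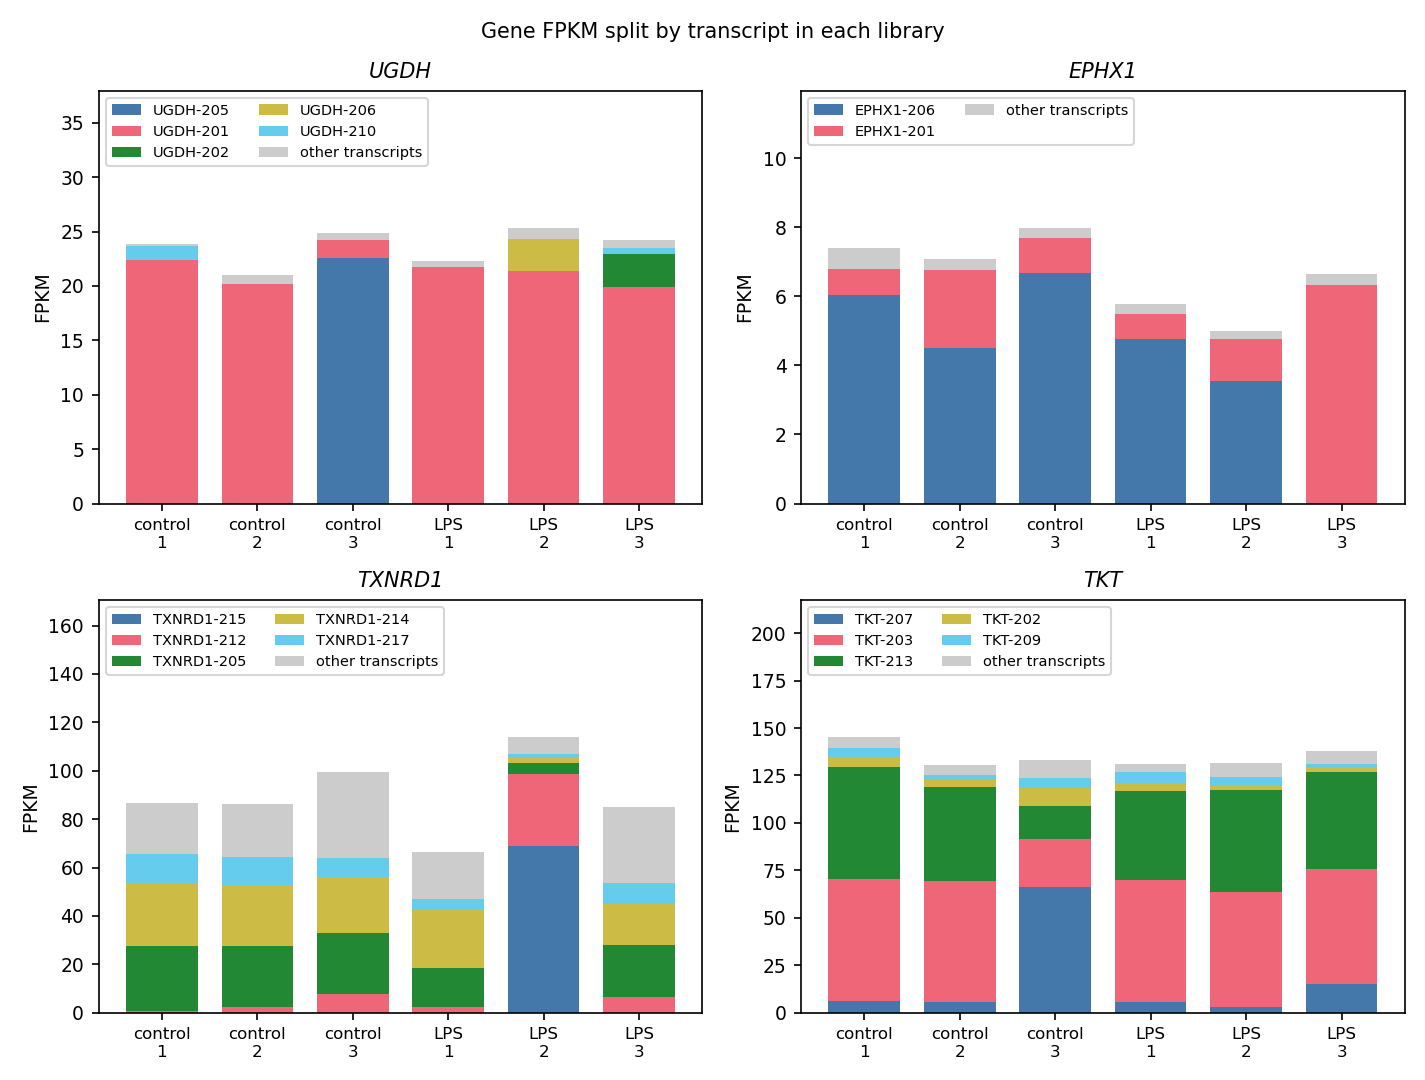
FPKM of UGDH, EPHX1, TXNRD1 and TKT in each library, stacked by transcript, controls left of LPS. UGDH-205 fills most of the bar in control 3, EPHX1-206 is missing from LPS 3 and TXNRD1-215 appears in LPS 2 alone, while the bar heights vary less.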

How the data were processed

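The 6 libraries were grouped by sample title, since controls and LPS libraries carry 1 and the same treatment entry. The authors deposited FPKM tables of protein-coding genes, protein-coding transcripts and all annotated genes and transcripts, and per the submitters' processing notes HISAT2 and StringTie were used, versions not given. Those notes name mm9, whereas per the file headers the rows are human Ensembl genes at GRCh38 positions, which are used here. No source used here gives the counting strand or read depth, and 95.1% of 61556 genes were found in GENCODE 29.

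Members were matched by gene name, and the members and lists were chosen with earlier results of these data known. Only features averaging 0.5 FPKM or more over the 6 libraries entered the fit, which used limma 3.58.1 in R 4.3.3 on log2(FPKM + 0.5), with group as the only term, a mean-variance trend and two-sided p-values, so changes of low genes are understated. P-values were adjusted by the Benjamini-Hochberg method over all features of a table, and the procedure was tested on simulated data. The changes planted there were larger than that of any member, so how well changes of member size are called was not tested. All members were named. Values were given by library for members with an unadjusted p under 0.05 or groups that did not overlap and for 7 preset genes. Further pathway genes were named by an unadjusted p under 0.05, and transcripts by that or as the most abundant of a gene given by library. HMOX2, the LPS-response and cell type markers, and the transcripts with unstable shares or outside the protein-coding table fall outside that rule, HMOX2 and these transcripts having been chosen after their values were seen. In all, 14 alternatives were run: pseudocounts, filters, rescaling, the replicate block, robust eBayes and leaving out each library. Transcripts of the long noncoding table were not used here.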

Additional observations from a re-analysis of the deposited data

How the results depend on the processing

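No member, further pathway gene or member transcript passed an adjusted p under 0.05 under any of the 14 alternatives, and the lowest adjusted p of a member was 0.261. NQO1, GCLC, ME1 and AKR1C1 kept an unadjusted p under 0.05 in all 14. The share of all genes that did so was not counted, and the fits reuse the same 6 libraries. The median log2 change of members ranged from -0.16 to -0.06. At an unadjusted p under 0.05, 4 to 9 members were lower, beside 3.44% to 6.19% of all genes. Without LPS 3, 1 member was higher at that threshold, and under every other alternative 0 were. The fewest members below 0 were 19 of 31, without LPS 1, where 50.4% of all genes were below 0. Over all genes, 7 passed the adjusted threshold, against 0 with no filter (1563 at an unadjusted p under 0.05), 0 with the replicate block (1451) and 0 to 8 in leave-one-out fits (limma). Over all transcripts, 26 passed, against 15 with no filter, 0 with the replicate block (1171 at an unadjusted p under 0.05) and 28 to 53 in leave-one-out fits. Deviations of same-numbered libraries correlated at 0.0175, 0.105 and 0.0605, and those of differently numbered libraries at -0.084 to 0.0228. These values do not settle whether the numbers mark pairs. The labels do not name pairs, so the main fit left the numbers out and the replicate block was run as an alternative. The sign turned in 10 members. FTL was at 0.0046 after median-of-ratios rescaling and TALDO1 at -0.0097 after quantile normalization. In leave-one-out fits, FTL ranged from -0.032 to 0.014, TALDO1 from -0.029 to 0.029, TKT from -0.059 to 0.018, BLVRB from -0.041 to 0.29, UGDH from -0.025 to 0.094 and KEAP1 from -0.12 to 0.34. TXNRD1 ranged from -0.27 to 0.12, OSGIN1 from -0.34 to 0.14, ABCC1 from -0.28 to 0.11 and HMOX1 from -0.072 to 0.62. The cause of these changes was not tested, though each fit without a library holds fewer samples. Unknown depth limits what can be said of members near 0 FPKM.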

Other observations

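Transcripts of the member genes outside the protein-coding table were not part of any test. Of 30 such transcripts with a mean of at least 0.5 FPKM, 3 lay lower in every LPS library than in any control library and 3 lay higher. Among all 15164 such transcripts in the table, 5.12% lay lower and 5.5% higher in this way, so these few are given as values only. AKR1C1-205 was 2.08, 1.28 and 1.99 FPKM in controls and 0.786, 1.07 and 0.797 with LPS. An assembled AKR1C1 transcript was 2.16, 2.69 and 2.14 FPKM in controls and 1.86, 1.81 and 1.09 with LPS. Together these 2 transcripts make up most of the AKR1C1 gene value, so they are no separate support for it. TALDO1-206 was 0.776, 1.98 and 1.31 FPKM in controls and 2.87, 3.19 and 3.88 with LPS, while the TALDO1 gene hardly differed between groups. TXNRD1-210 was lower, at 3.74, 3.32 and 8.37 FPKM in controls and 2.70, 2.86 and 2.85 with LPS. FTH1-209 and TKT-206 were the other 2 that stood higher.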
